A study of Mus musculus with 18 samples.

Results

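The genes described here are 49 enzymes and regulators of glycolysis, of the entry of pyruvate into mitochondria and of the citric acid cycle. They were taken by symbol from a fixed list, out of 52093 symbols in the expression files, and each symbol was represented by its transcript row with the highest mean RPKM, a read count scaled to transcript length and library total. All 49 symbols were found. They were read as 4 groups: 14 genes of upper glycolysis from hexokinase to triosephosphate isomerase, 9 of lower glycolysis and lactate, 9 of pyruvate entry, and 17 of the citric acid cycle with cytosolic isocitrate, aconitate and malate enzymes and the malic enzymes. RNA was sequenced from 18 libraries of male wild-type C57BL/6 mice (C57BL/6J in the extraction protocol) fed a HFD (high-fat diet) during 12 weeks and aged 16 weeks, with 6 libraries per tissue. A table note of the paper gives the strain as C57BL/6NTac instead, so the substrain is not settled. The sample titles and the study design give the HFD, while the treatment field of all 18 samples gives regular chow, so the samples were taken as HFD. Inguinal (iWAT) and epididymal (eWAT) samples were mature adipocytes that float after collagenase digestion, from mice numbered 1, 2, 3, 4, 5 and 16. Brown adipose tissue (BAT) was frozen whole, from mice numbered 1, 2, 5, 16, 17 and 18. A difference between BAT and a white depot therefore also contains the difference between whole tissue and isolated cells, and between the sequencing lanes of BAT and of the white depots, which cannot be told apart from the tissue.

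Glycolysis splits glucose into pyruvate in the cytosol, and most of its steps are run by families of isoenzymes whose members differ in regulation and in the cells that use them. Pyruvate is reduced to lactate by lactate dehydrogenase, oxidized to acetyl-CoA by the mitochondrial pyruvate dehydrogenase complex, or carboxylated to oxaloacetate by pyruvate carboxylase, and the citric acid cycle then oxidizes acetyl-CoA and feeds electrons to the respiratory chain. White adipocytes use glucose carbon for glycerol and fatty acid synthesis, whereas brown adipocytes are dense in mitochondria and burn fuel for heat through UCP1.

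Reads counted on transcript rows numbered 26768529 to 30166441 per library in iWAT adipocytes, 24655056 to 37438994 in adipocytes of eWAT and 27402247 to 42518483 in BAT. Rows of the mitochondrial genome and their near-identical nuclear copies took 13.5 to 19.5% of these reads in iWAT adipocytes, 7.34 to 12.2% in adipocytes of eWAT and 43.6 to 53.6% in BAT. The RPKM of other genes in BAT is therefore low relative to the white depots, and fold changes are given from edgeR's quasi-likelihood test with TMM scaling, which left the median of all genes within 0.02 of 0 on the log2 scale. Without this scaling, the median of all genes moved to 0.87 (iWAT adipocytes over BAT) and 0.89 (eWAT adipocytes over BAT). The split of all genes called then moved from 7528 higher in iWAT adipocytes and 7336 higher in BAT to 13703 and 3054. For eWAT adipocytes against BAT it moved from 8243 and 8318 to 12965 and 4061. Directions that turned without scaling are given with the genes concerned. In whole tissue, fewer cells of a type and less RNA per cell cannot be told apart.

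The labelled tissues were checked against marker genes. Summed RPKM of 5 brown adipocyte markers was 2927 to 4284 in BAT, 31.4 to 49.5 in iWAT adipocytes and 5.68 to 17.1 in eWAT adipocytes. All 6 macrophage markers were called higher in eWAT than in iWAT adipocytes, with a median log2 difference of 2.1, and none was at 0 reads in any library. Their summed RPKM was 452 to 876 in iWAT adipocytes, 2515 to 4075 in adipocytes of eWAT and 24.6 to 49.4 in BAT. The 5 adipocyte markers were all higher in iWAT than in eWAT adipocytes, and their sum was lowest in the eWAT libraries of mouse 3 (2511 RPKM) and mouse 1 (3433 RPKM). Summed RPKM of 10 skeletal muscle markers ran from 2.03 to 139 among the BAT libraries, against 5.84 to 20.1 in iWAT and 2.21 to 7.12 in eWAT adipocytes. All 4 endothelial markers were called at least 2-fold higher in iWAT than in eWAT adipocytes, with sums of 172 to 487 and 57.5 to 142 RPKM. Among iWAT libraries, that of mouse 5 held the lowest adipocyte sum (11221 RPKM) and the highest endothelial (487) and erythroid (871) sums. The part of vascular RNA in the iWAT values was not tested. In RPKM without TMM scaling, the lowest iWAT value of 32 of the 49 genes was in the library of mouse 5. The eWAT library of mouse 3 held the lowest eWAT value of 27, and the BAT library of mouse 16 the lowest BAT value of 26.

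BAT held higher RNA levels of nearly the whole route from phosphofructokinase to malate dehydrogenase, with the largest folds at malic enzyme 3 (Me3), lactate dehydrogenase B (Ldhb), pyruvate dehydrogenase kinase 4 (Pdk4) and the succinyl-CoA synthetase subunits Suclg1 and Sucla2. A small set of isoenzymes went the other way, led by hexokinase 3. All 49 genes passed the filter of a mean of 10 reads in each comparison. Against iWAT adipocytes, 45 of 49 were called at an adjusted p of 0.05, against 75.3% of all genes tested. Of these, 38 were higher in BAT (37.2% of all genes), 33 of them at least 2-fold (19.1% of all genes), and 7 were higher in iWAT adipocytes (38.1% of all genes). The median over the 49 genes was 2.12 on the log2 scale (BAT over iWAT adipocytes), beside -0.01 over all genes. Against eWAT adipocytes, 48 of 49 were called, against 82.5% of all genes. Of these, 42 were higher in BAT (41.4% of all genes), 35 of them at least 2-fold (25.3%), and 6 were higher in eWAT adipocytes (41.1%). The median was 2.66 (BAT over eWAT adipocytes), beside 0.02 over all genes. Without scaling, 12 members were called higher in iWAT adipocytes than in BAT and 12 higher in eWAT adipocytes than in BAT. Of all genes tested, 13703 of 19745 and 12965 of 20076 were.

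The white depots differed less. Between them 43 of 49 genes were called, against 68.6% of all genes, with 31 higher in iWAT adipocytes (34.1% of all genes) and 12 higher in eWAT adipocytes (34.5%). Only 5 and 3 of these reached 2-fold, against 13.0% and 11.9% of all genes. The median over the 49 genes was 0.58 (iWAT over eWAT adipocytes), beside 0.00 over all genes. Without the eWAT libraries of mice 1 and 3, 28 were called higher in iWAT and 12 in eWAT adipocytes, beside 5777 and 5986 of 19542 genes tested.

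**Figure D1:**
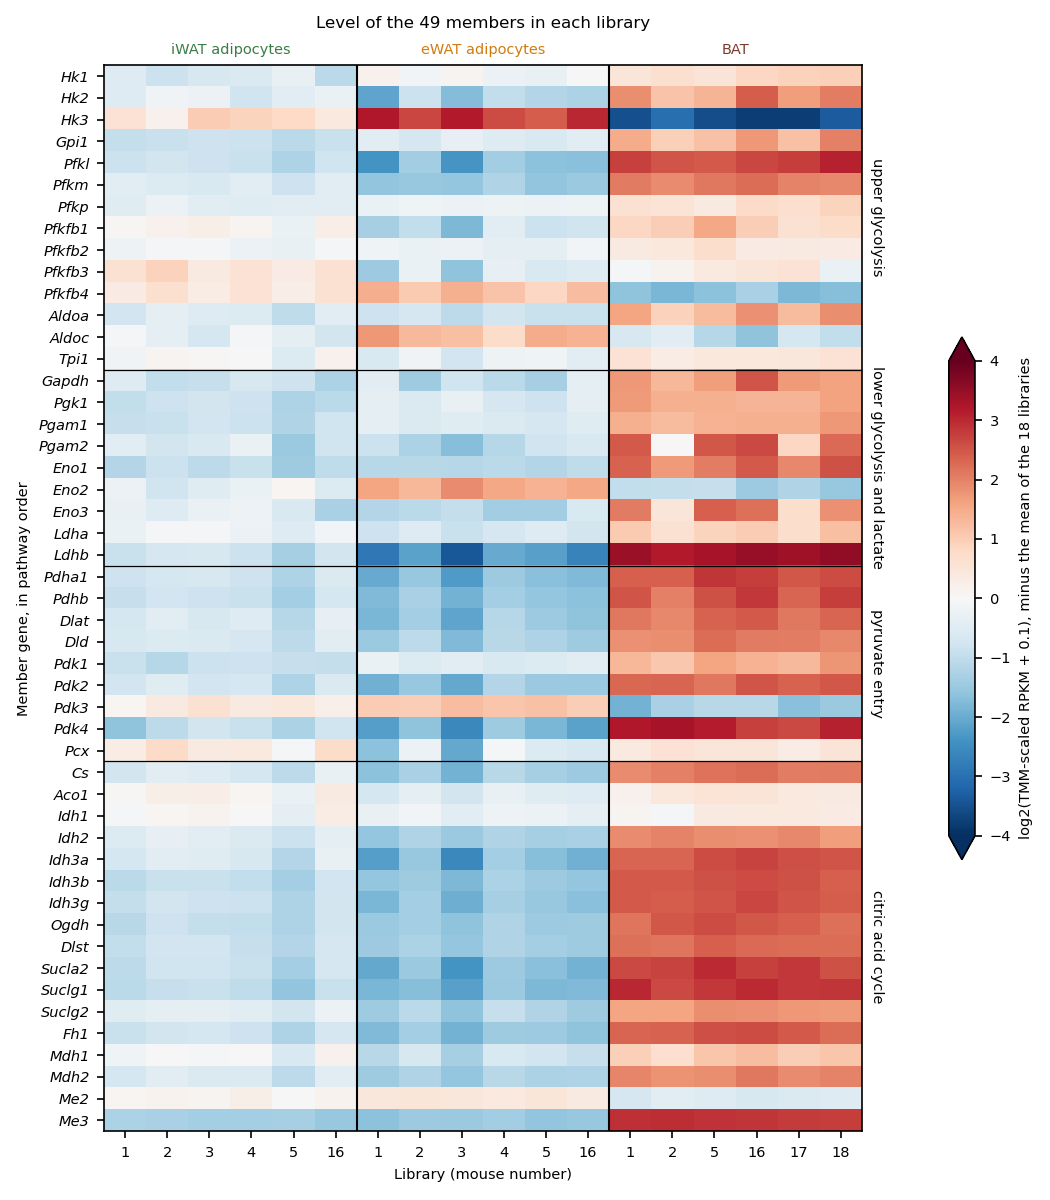
RNA level of each of the 49 genes (rows, ordered by step) in each of the 18 libraries (columns, by tissue and mouse number), in colour, as log2(TMM-scaled RPKM + 0.1) minus the mean of that gene over the 18 libraries. Most rows are highest across the 6 BAT columns, and Hk3, Pfkfb4, Aldoc, Eno2, Pdk3 and Me2 are lowest there.

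**Figure D2:**
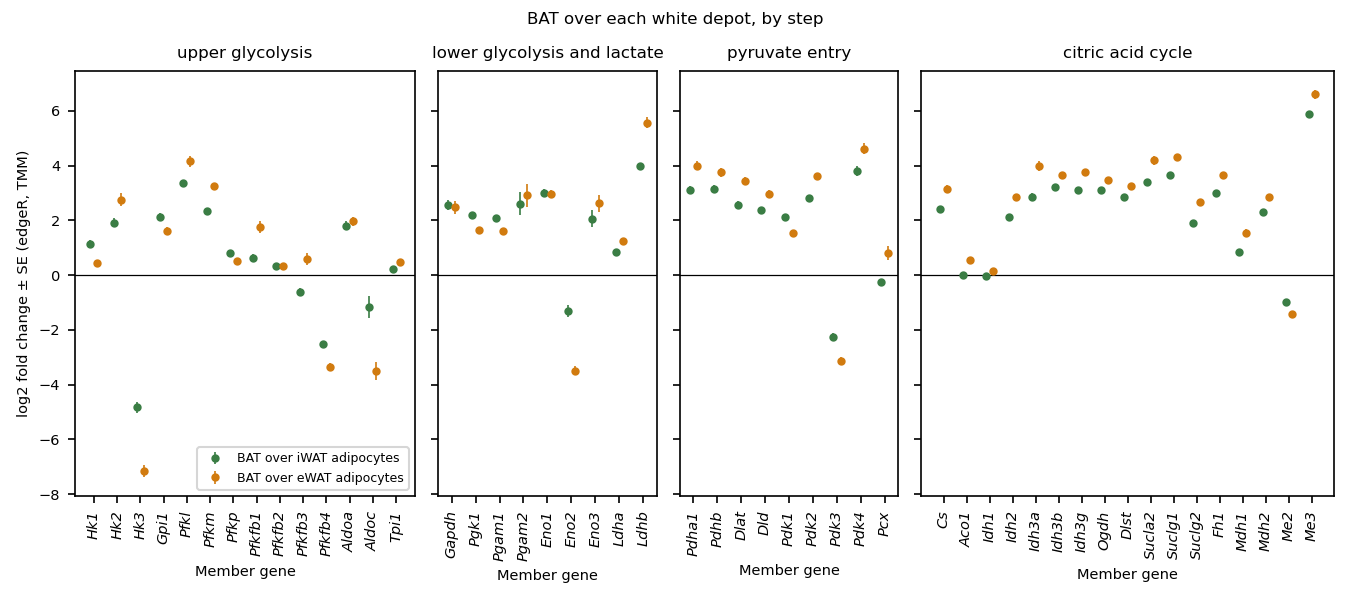
Log2 fold change of BAT over iWAT adipocytes and of BAT over eWAT adipocytes for each of the 49 genes (edgeR, bars are SE, 6 libraries per tissue), grouped by step. The medians are 0.73 and 0.56 in upper glycolysis and 2.86 and 3.27 in the citric acid cycle. Both columns use the same BAT libraries.

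Upper glycolysis was the group most mixed in direction against BAT. Of its 14 genes, 9 were higher in BAT and 4 in iWAT adipocytes (37.2% and 38.1% of all genes). Against eWAT adipocytes, 11 were higher in BAT and 3 in eWAT adipocytes (41.4% and 41.1% of all genes). Between the white depots, 5 were higher in iWAT and 6 in eWAT adipocytes (34.1% and 34.5% of all genes). The hexokinases, which trap glucose as glucose 6-phosphate, gave the widest contrast between isoenzymes. Hk2, the insulin-responsive form of muscle and fat, ranged from 18.7 to 28.2 RPKM in iWAT adipocytes (median 26.3), from 8.10 to 18.5 in eWAT adipocytes (14.6) and from 43.3 to 77.8 in BAT (64.3). The 3 tissues did not overlap, with BAT highest and eWAT adipocytes lowest. Hk2 was 3.79-fold higher in BAT than in iWAT adipocytes (log2 1.92 ± 0.18 SE, adjusted p = 9.9e-08) and 6.76-fold higher than in eWAT adipocytes (2.76 ± 0.23, adjusted p = 1.9e-08). It was also 1.81-fold higher in iWAT than in eWAT adipocytes (0.86 ± 0.18, adjusted p = 9.2e-04).

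Hk3, a hexokinase best known from myeloid cells and encoded on the minus strand of chr13:55107346-55122746 (mm9), had the opposite order. It ranged from 4.89 to 8.97 RPKM in iWAT adipocytes (median 7.83), from 25.5 to 45.7 in eWAT adipocytes (35.4) and from 0.0999 to 0.271 in BAT (0.154). Every eWAT value was above every iWAT value, and every BAT value was below both. Hk3 was 28.3-fold higher in iWAT adipocytes than in BAT (log2 4.82 ± 0.20, adjusted p = 8.7e-12) and 141-fold higher in eWAT adipocytes than in BAT (7.14 ± 0.22, adjusted p = 4.0e-13). It was 4.89-fold higher in eWAT than in iWAT adipocytes (adjusted p = 4.3e-07). The macrophage markers had the same order of tissues, with Cd68, a lysosomal protein of macrophages, at a median of 138 RPKM in iWAT adipocytes, 544 in adipocytes of eWAT and 3.31 in BAT. Within eWAT, the libraries of mice 3 and 1, which held the lowest adipocyte sums and macrophage sums of 3999.7 and 4075 RPKM, had Hk3 at 45.7 and 45.4 RPKM and Hk2 at 10.7 and 8.10 RPKM. The part of macrophage RNA in these values was not tested. Pfkfb4, Aldoc, Eno2, Pdk3 and Me2 had the same order of tissues, and the part of macrophage RNA in their values was not tested either.

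Hk1, the broadly expressed form, was lower than Hk2 in all 3 tissues. Its medians were 3.75 RPKM in iWAT adipocytes (2.66 to 5.19), 5.90 in eWAT adipocytes (4.92 to 7.18) and 5.21 in BAT (4.48 to 6.59), and the ranges of BAT overlapped those of both depots. It was called 2.20-fold higher in BAT than in iWAT adipocytes (adjusted p = 8.2e-07, but 0.112 without scaling) and 1.58-fold higher in eWAT than in iWAT adipocytes (adjusted p = 7.2e-04). Its 1.36-fold difference from eWAT adipocytes to BAT (adjusted p = 0.00223) turned to higher in eWAT adipocytes without scaling. As a share of summed hexokinase RPKM, Hk2 made up 69.1% ± 6.65 (SD, n = 6) in iWAT adipocytes, 25.6% ± 9.03 in those of eWAT and 91.3% ± 2.23 in BAT. Hk3 made up 20.4% ± 4.82, 63.7% ± 8.55 and 0.269% ± 0.149. The shares of Hk2 and Hk3 did not overlap between any of the 3 tissues, so eWAT adipocytes were the one tissue whose leading hexokinase transcript was not Hk2.

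Phosphofructokinase 1 commits the sugar to glycolysis. The liver-type subunit Pfkl ranged from 6.33 to 7.84 RPKM in iWAT adipocytes (median 7.62), from 2.73 to 5.34 in eWAT adipocytes (4.48) and from 39.1 to 65.2 in BAT (50.3). BAT lay far above both depots, by 10.2-fold over iWAT adipocytes (log2 3.35 ± 0.12, adjusted p = 3.6e-12) and by 17.9-fold over eWAT adipocytes (4.16 ± 0.20, adjusted p = 2.7e-11). The muscle-type subunit Pfkm ranged from 3.33 to 4.28 RPKM in iWAT adipocytes (median 3.70), from 1.79 to 2.33 in eWAT adipocytes (1.95) and from 11.6 to 13.4 in BAT (12.5). It was 5.08-fold and 9.42-fold higher in BAT (adjusted p = 1.6e-12 and 8.1e-14), and the BAT libraries of mice 2 and 17, with the lowest muscle marker sums, had 12.4 and 12.9 RPKM. The platelet-type subunit Pfkp was nearly level, at medians of 6.53 RPKM in iWAT adipocytes (6.19 to 7.15), 7.99 in eWAT adipocytes (7.69 to 8.23) and 7.85 in BAT (5.96 to 9.25). Its calls in BAT, 1.76-fold over iWAT and 1.45-fold over eWAT adipocytes (adjusted p = 3.9e-07 and 2.4e-05), both turned without scaling.

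Shares within the family moved with these levels. Pfkl made up 41.7% ± 1.94 of summed phosphofructokinase 1 RPKM in iWAT adipocytes, 29.2% ± 5.89 in adipocytes of eWAT and 70.9% ± 2.97 in BAT, without overlap. Pfkp made up 37.4% ± 2.69, 56.7% ± 5.19 and 11.0% ± 0.626, also without overlap. By read counts rather than RPKM, Pfkp and not Pfkl led in iWAT adipocytes.

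The PFKFB enzymes make and break fructose 2,6-bisphosphate, the strongest allosteric activator of phosphofructokinase 1. Pfkfb3, the form with the highest kinase activity, was the most abundant in each tissue. It ranged from 80.2 to 116 RPKM in iWAT adipocytes (median 95), from 22.8 to 55.7 in eWAT adipocytes (45.6) and from 29.3 to 55.5 in BAT (41.5). The iWAT values lay above those of both other tissues, which overlapped. Pfkfb3 was 2.35-fold higher in iWAT than in eWAT adipocytes (log2 1.23 ± 0.22, adjusted p = 2.5e-04) and 1.53-fold higher in iWAT adipocytes than in BAT (0.61 ± 0.14, adjusted p = 1.0e-03). The latter had an adjusted p of 0.0502 with only the BAT libraries of mice 2 and 17. The eWAT values were 22.8 and 25.1 RPKM in mice 3 and 1 and 43.2 to 55.7 in the other 4. The 1.51-fold difference from eWAT adipocytes to BAT (adjusted p = 0.0195) was not called without those 2 eWAT libraries (adjusted p = 0.0727), and it turned without scaling.

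Pfkfb4 went the other way. It ranged from 4.15 to 5.24 RPKM in iWAT adipocytes (median 4.81), from 6.34 to 10.3 in eWAT adipocytes (8.32) and from 0.522 to 0.597 in BAT (0.537), with no overlap between tissues. It was 5.68-fold and 10.3-fold higher in iWAT and eWAT adipocytes than in BAT (adjusted p = 9.8e-12 and 5.0e-12) and 1.77-fold higher in eWAT than in iWAT adipocytes (adjusted p = 4.2e-05). Its share of the family was 17.8% ± 8.03 in eWAT adipocytes, 4.59% ± 0.409 in iWAT adipocytes and 1.27% ± 0.284 in BAT. In the eWAT libraries of mice 3 and 1, with the highest macrophage sums, this share was 29.1% and 27.0%, against 11.4 to 14.7% in the other eWAT libraries. Pfkfb1, the form of liver and muscle, had medians of 1.77 RPKM in iWAT adipocytes (1.46 to 1.95), 0.841 in eWAT adipocytes (0.420 to 1.19) and 1.64 in BAT (1.49 to 2.60). It was 2.20-fold higher in iWAT than in eWAT adipocytes (adjusted p = 2.3e-04) and 3.38-fold higher in BAT than in eWAT adipocytes (adjusted p = 1.7e-06), and its 1.56-fold call in BAT over iWAT adipocytes turned without scaling. Pfkfb2, the heart form, stayed between 1.18 and 2.07 RPKM in all libraries, and its small calls in BAT (1.26-fold and 1.27-fold) turned without scaling. Rows of other symbols overlap the whole span of Pfkfb2, so its counts are uncertain.

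**Figure D3:**
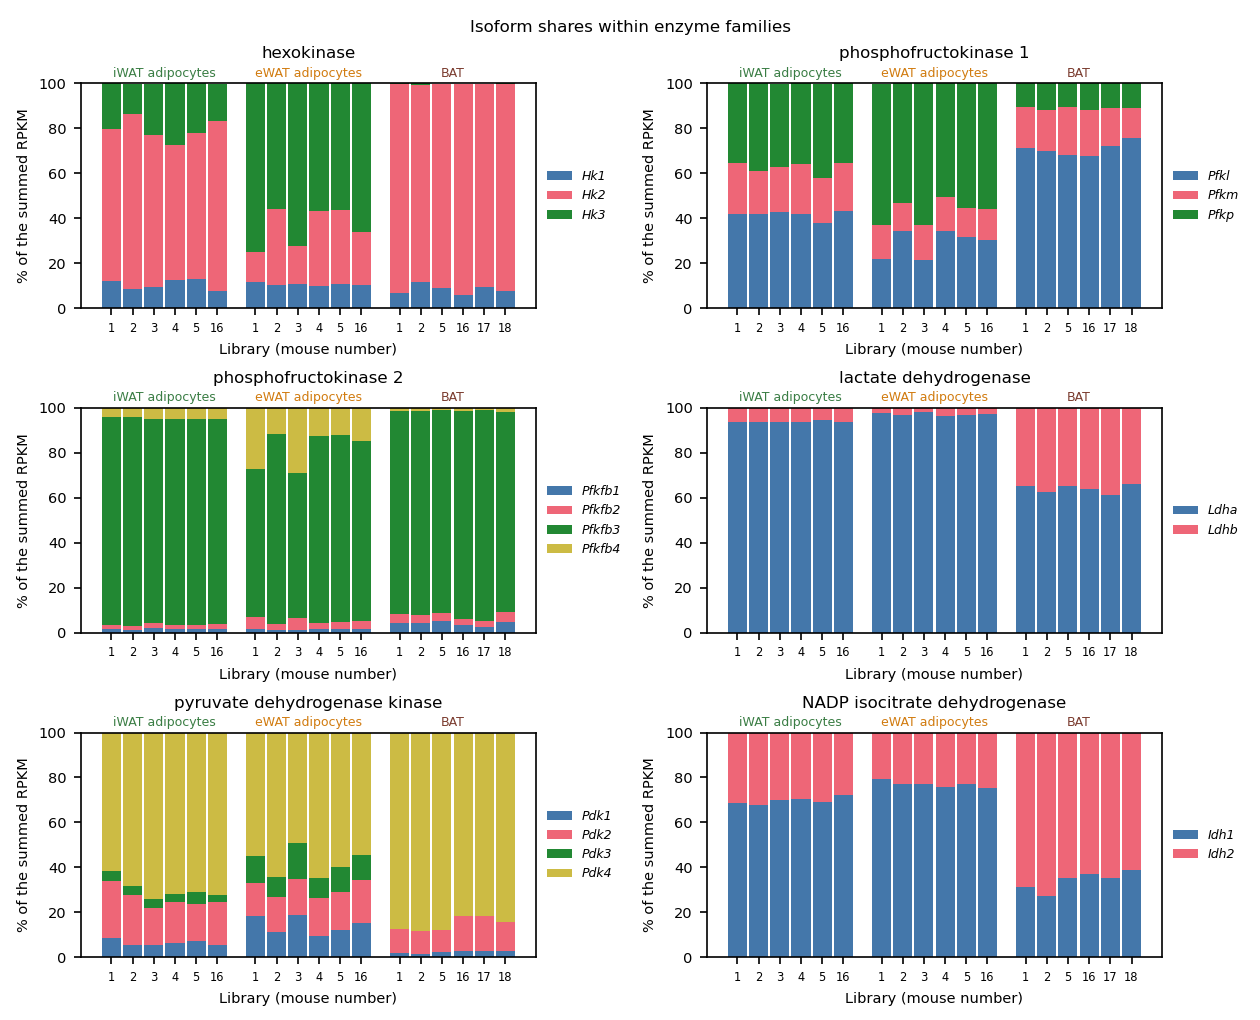
Share of each isoenzyme in the summed RPKM of its family, in percent, for 6 of the 11 families, in each of the 18 libraries (stacked bars, by tissue and mouse number). On average, Hk3 leads the hexokinases in eWAT adipocytes at 63.7%, Ldhb reaches 35.9% of lactate dehydrogenase in BAT, and Idh2 leads Idh1 in BAT at 65.9%. Reads on copies are not included, so the Ldhb share is a lower bound.

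Aldolase and the isomerases follow. Aldoa, the main aldolase of muscle and most tissues, had the highest RPKM of the glycolytic genes when each is read from its own row alone, at 207 to 283 RPKM in iWAT adipocytes (median 259.7), 204 to 253 in adipocytes of eWAT (227) and 444 to 771 in BAT (574). It was 3.51-fold and 3.90-fold higher in BAT (adjusted p = 4.1e-08 and 7.0e-09), and the white depots did not differ past the threshold (adjusted p = 0.149), except when the iWAT library of mouse 5 was left out (log2 iWAT over eWAT 0.24 ± 0.09, adjusted p = 0.0316). Aldoc, the brain form, was near the limit of detection, with 0.497 to 1.18 RPKM in eWAT adipocytes (median 0.851), 0.0983 to 0.249 in iWAT adipocytes (0.170) and 0 to 0.0874 in BAT (0.0482), where 1 library had no read. It was 5.01-fold higher in eWAT than in iWAT adipocytes (adjusted p = 3.8e-06) and 11.5-fold higher in eWAT adipocytes than in BAT (adjusted p = 9.8e-08). Its 2.25-fold difference from iWAT adipocytes to BAT (adjusted p = 0.0132) was not called with only the BAT libraries of mice 2 and 17 (adjusted p = 0.222).

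Gpi1, glucose phosphate isomerase, was 4.33-fold higher in BAT than in iWAT and 3.05-fold higher than in eWAT adipocytes (adjusted p = 5.0e-09 and 1.9e-07), and 1.39-fold higher in eWAT than in iWAT adipocytes (adjusted p = 6.6e-05). Another symbol overlaps 52.1% of its span. Tpi1, triosephosphate isomerase, had medians of 95.3, 78.0 and 73.0 RPKM in adipocytes of iWAT, in those of eWAT and in BAT. It was not called between the white depots (adjusted p = 0.0657) or between iWAT adipocytes and BAT (adjusted p = 0.0607). Between the white depots it was called higher in iWAT adipocytes under 4 alternatives, with adjusted p from 0.0138 without the iWAT library of mouse 5 to 0.0472 with all 18 libraries in one fit. It was called 1.40-fold higher in BAT than in eWAT adipocytes (adjusted p = 6.3e-04), a direction that turned without scaling, as did the uncalled one against iWAT adipocytes.

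Lower glycolysis and lactate moved more evenly. Of its 9 genes, 8 were higher in BAT and 1, Eno2, was higher in the white depot in each comparison with BAT. Of all genes, 37.2% were higher in BAT and 38.1% in iWAT adipocytes. Against eWAT adipocytes, 41.4% of all genes were higher in BAT and 41.1% in eWAT adipocytes. The medians of the group were 2.19 (BAT over iWAT adipocytes) and 2.48 (BAT over eWAT adipocytes). Between the white depots, 3 were higher in iWAT and 3 in eWAT adipocytes (34.1% and 34.5% of all genes). For Gapdh and Pgk1, which run the oxidation of glyceraldehyde 3-phosphate and the first ATP-yielding step, the deposited row held only a small part of the reads on the gene's sequence. Gapdh had 0.453 to 0.886 RPKM in iWAT adipocytes (median 0.657), 0.417 to 1.0 in adipocytes of eWAT (0.643) and 2.05 to 3.52 in BAT (2.42), below most neighbours in the pathway. Rows of processed copies elsewhere in the genome held nearly all reads of this sequence. The copies were found by matching each member's GENCODE transcript to the genome.

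A stretch of a coding exon of Gapdh shows how alike gene and copy are. It lies at chr6:125113335-125113454 on the minus strand of mm9, and the row of the copy Gm10481 holds the same 120 bases at chr11:20235874-20235993, also on the minus strand. No base is in capitals because none differs.
Gapdh: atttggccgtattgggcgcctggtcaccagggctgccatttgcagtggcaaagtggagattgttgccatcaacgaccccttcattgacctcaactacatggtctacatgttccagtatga
Gm10481: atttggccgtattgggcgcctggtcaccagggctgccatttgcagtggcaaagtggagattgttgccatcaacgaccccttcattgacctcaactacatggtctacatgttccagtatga
Over 999 coding bases compared, 1 base differed. For Pgk1, the copy Gm5537 on chromosome 12 differed at 0 of 1251 coding bases.

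The own row of Gapdh held 55 to 102 reads in iWAT adipocytes, 51 to 157 in those of eWAT and 215 to 359 in BAT. Its copy rows held 10261 to 12235, 13635 to 23047 and 18947 to 45770. The copies thus took 99.3%, 99.5% and 98.9% of the reads on the gene and its copies, and 94.8%, 95.1% and 94.5% for Pgk1. They took 87.2%, 87.5% and 86.4% for Eno1, 52.0%, 53.6% and 53.2% for Ldhb, 37.4%, 37.9% and 35.9% for Gpi1, 21.5%, 20.3% and 18.4% for Suclg2 and 7.79%, 8.03% and 7.23% for Pgam1. The rule for multi-mapped reads is not known, so a read may count on several of these rows, also where copies are added. These 7 genes were the members with such rows, and within each gene the share moved by at most a few percentage points between tissues. For Gapdh, few reads were left on the own row, so such a move still altered its own-row folds. On its own row, Gapdh was 5.94-fold higher in BAT than in iWAT adipocytes and 5.57-fold higher than in eWAT adipocytes (adjusted p = 4.3e-09 and 1.3e-07), with no call between the white depots (log2 iWAT over eWAT -0.06 ± 0.23, adjusted p = 0.829). With the reads of copies added, an alternative chosen after the copies were seen, Gapdh was higher in eWAT than in iWAT adipocytes (log2 iWAT over eWAT -0.49 ± 0.07, adjusted p = 4.9e-05). Its log2 fold changes were then -1.98 ± 0.15 (iWAT adipocytes over BAT) and -1.46 ± 0.15 (eWAT adipocytes over BAT), against -2.57 and -2.48 on the own row. The call of Gapdh between the white depots was the one call of a member that this sum changed. The levels of Gapdh, Pgk1, Eno1 and Ldhb in RPKM are lower bounds for the gene and its copies together.

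**Figure D4:**
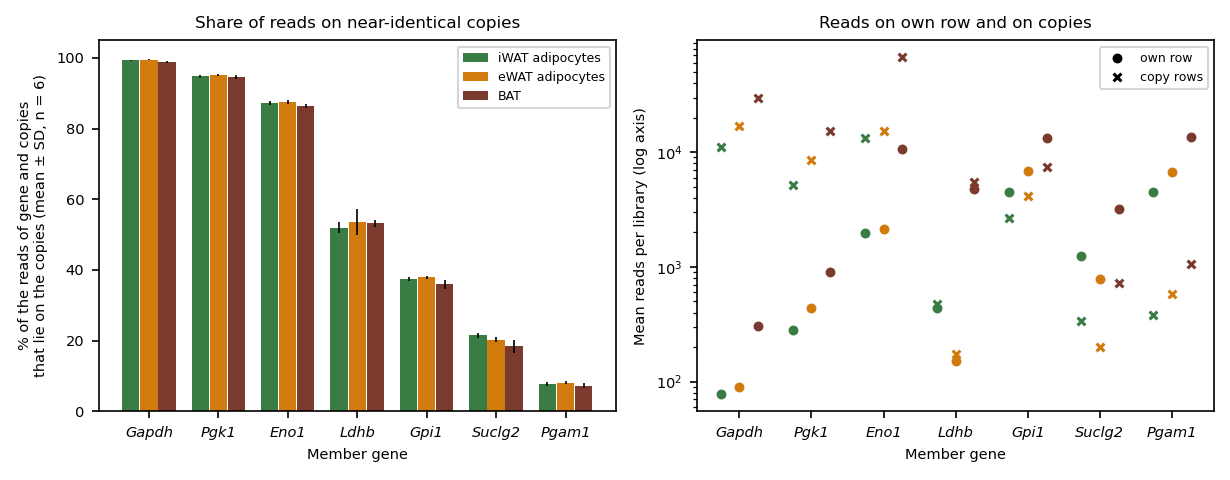
For the 7 members with near-identical copies, the percent of the reads on gene and copies that lie on the copies (left, mean ± SD of 6 libraries per tissue) and the mean reads per library on the own row and on the copy rows (right, log axis). The share is close to 99% for Gapdh and 7 to 8% for Pgam1.

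Pgk1 was 4.55-fold higher in BAT than in iWAT and 3.17-fold higher than in eWAT adipocytes (adjusted p = 2.1e-11 and 1.6e-09), and 1.41-fold higher in eWAT than in iWAT adipocytes (adjusted p = 0.00113). Phosphoglycerate mutase was nearly all Pgam1, the brain and general form, at 98.8 to 99.5% of family RPKM in the means of the 3 tissues. Pgam1 ranged from 73.4 to 87.4 RPKM in iWAT adipocytes (median 84.3), from 100 to 126 in eWAT adipocytes (111) and from 182 to 285 in BAT (229). It was one of the few members that were ordered BAT, eWAT adipocytes, iWAT adipocytes without overlap, at 4.24-fold and 3.08-fold higher in BAT (adjusted p = 3.8e-11 and 6.2e-10) and 1.35-fold higher in eWAT than in iWAT adipocytes (adjusted p = 2.1e-04).

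Pgam2 and Eno3, the muscle forms of mutase and enolase, were uneven among BAT libraries. In BAT of mice 1, 2, 5, 16, 17 and 18, Pgam2 was at 3.91, 0.687, 3.66, 3.46, 1.25 and 3.27 RPKM. Eno3 was at 5.06, 1.71, 5.82, 4.36, 1.96 and 4.11 RPKM. The summed RPKM of 10 skeletal muscle markers in the same libraries was 113, 2.03, 139, 99.3, 22.6 and 78.7, so the libraries of mice 2 and 17 were low for both enzymes and for the markers. With all BAT libraries, Pgam2 was 6.09-fold and Eno3 4.17-fold higher in BAT than in iWAT adipocytes (adjusted p = 3.1e-05 and 2.0e-05), and 7.58-fold and 6.13-fold higher than in eWAT adipocytes (adjusted p = 1.1e-05 and 1.5e-06). With only mice 2 and 17, the log2 fold change of iWAT adipocytes over BAT was -1.04 ± 0.35 for Pgam2 (adjusted p = 0.0237) and -0.91 ± 0.25 for Eno3 (adjusted p = 0.00920). For eWAT adipocytes over BAT it was -1.39 ± 0.36 (adjusted p = 0.00579) and -1.50 ± 0.23 (adjusted p = 2.1e-04). The part of muscle RNA in the BAT values was not tested. Eno3 was higher in iWAT than in eWAT adipocytes (log2 0.58 ± 0.21, adjusted p = 0.0230), and Pgam2 was not called (adjusted p = 0.261). The call of Eno3 did not hold with the mouse number as a block (adjusted p = 0.0735) or without scaling (0.0532). It also did not hold with all 18 libraries in one fit (0.0991) or without the eWAT libraries of mice 1 and 3 (0.0562).

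**Figure D5:**
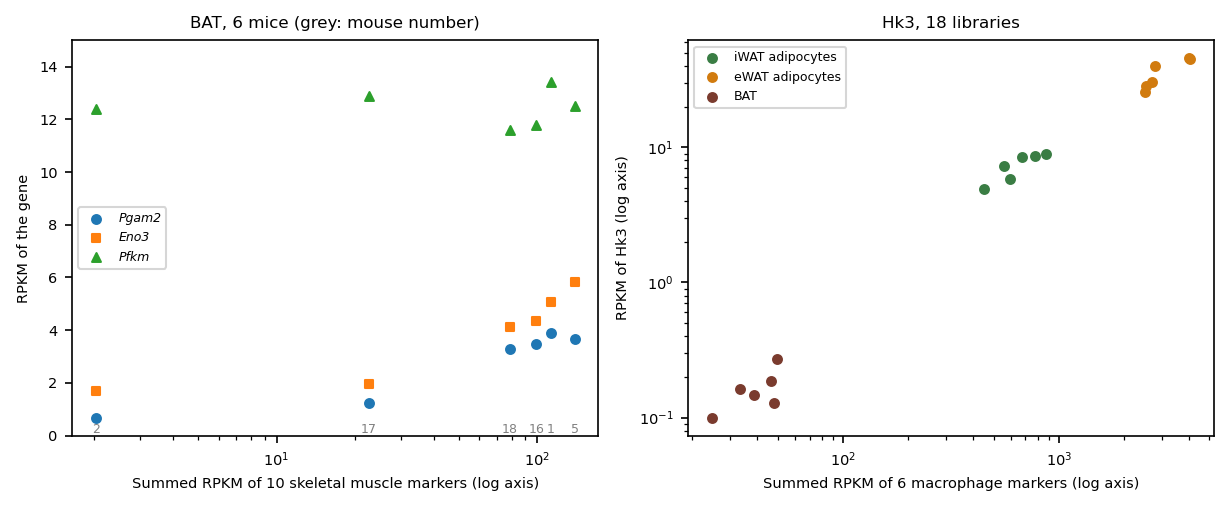
Left, RPKM of Pgam2, Eno3 and Pfkm in the 6 BAT libraries against the summed RPKM of 10 skeletal muscle markers (log axis), and right, RPKM of Hk3 against the summed RPKM of 6 macrophage markers in all 18 libraries (both axes log, points by tissue). Pgam2 and Eno3 are lowest in mice 2 and 17, Pfkm lies between 11.6 and 13.4 RPKM in all 6, and the eWAT libraries are at the top right for Hk3.

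The other enolases split between the tissues. Eno1, the general form, had 10.2 to 13.6 RPKM in iWAT adipocytes (median 12.1), 11.5 to 13.2 in adipocytes of eWAT (12.4) and 49.8 to 82.9 in BAT (59.2). BAT stood apart, at 7.97-fold and 7.78-fold higher (adjusted p = 6.0e-11 and 1.9e-11), while the white depots did not differ past the threshold (log2 -0.01 ± 0.08, adjusted p = 0.938). Another symbol overlaps the whole span of Eno1. Eno2, the neuronal form, ranged from 2.18 to 3.45 RPKM in eWAT adipocytes (median 2.57), from 0.374 to 0.901 in iWAT adipocytes (0.563) and from 0.0927 to 0.204 in BAT (0.169), with no overlap. It was 4.42-fold higher in eWAT than in iWAT adipocytes (adjusted p = 4.5e-07), and 2.49-fold and 11.3-fold higher in iWAT and eWAT adipocytes than in BAT (adjusted p = 4.0e-05 and 3.0e-11). Its share of enolase RPKM was 16.5% ± 2.01 in eWAT adipocytes, 4.25% ± 1.62 in iWAT adipocytes and 0.242% ± 0.102 in BAT. Reads on the copies of Eno1, which outnumber those on its own row, are not in this sum, so the share of Eno2 is an upper bound.

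Lactate dehydrogenase is a tetramer of A subunits, which favour lactate formation, and B subunits, which favour lactate use. Ldha was high in every tissue, at 126 to 155 RPKM in iWAT adipocytes (median 148), 97.4 to 121 in adipocytes of eWAT (106) and 149 to 213 in BAT (162). It was 1.81-fold and 2.39-fold higher in BAT (adjusted p = 3.9e-06 and 4.0e-08), the former not called without scaling, and 1.34-fold higher in iWAT than in eWAT adipocytes (adjusted p = 9.7e-04). Ldhb, at chr6:142438769-142456477 on the minus strand, had 7.11 to 10.4 RPKM in iWAT adipocytes (median 9.58), 1.61 to 4.11 in adipocytes of eWAT (3.19) and 84.1 to 109 in BAT (96.5). No tissue overlapped another. Ldhb was 15.8-fold higher in BAT than in iWAT adipocytes (log2 3.98 ± 0.12, adjusted p = 3.9e-13), 47.5-fold higher than in eWAT adipocytes (5.57 ± 0.20, adjusted p = 1.8e-12) and 3.06-fold higher in iWAT than in eWAT adipocytes (1.62 ± 0.20, adjusted p = 1.6e-05). The last was the largest log2 difference between the white depots among the members higher in iWAT adipocytes. The B subunit made up 5.99% ± 0.333 of Ldha plus Ldhb RPKM in iWAT adipocytes, 2.69% ± 0.724 in adipocytes of eWAT and 35.9% ± 1.92 in BAT. Reads on the copy are not in these shares, so they are lower bounds for Ldhb and its copy together. In BAT, the copy row held a mean of 5498 reads and the own row 4790.2. Whether the B subunit would lead in BAT with the copy added was not tested.

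The copy of Ldhb can be told apart by sequence only in places. A coding exon stretch at chr6:142447065-142447184 (mm9, minus strand) and the matching stretch of the copy Gm5514 at chr19:22012131-22012250 (plus strand) differ at 5 of 120 bases, in capitals, and the coding bases compared differed at 20 of 1002.
Ldhb: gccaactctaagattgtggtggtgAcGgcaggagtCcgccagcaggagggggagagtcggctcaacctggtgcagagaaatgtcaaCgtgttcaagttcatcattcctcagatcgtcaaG
Gm5514: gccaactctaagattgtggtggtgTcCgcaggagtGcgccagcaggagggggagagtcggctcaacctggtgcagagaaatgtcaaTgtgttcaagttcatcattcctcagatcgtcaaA
A read that falls between 2 such positions matches both places.

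Pyruvate entry was dominated by higher levels in BAT. Of 9 genes, 7 were higher in BAT and 1 in iWAT adipocytes (37.2% and 38.1% of all genes). Against eWAT adipocytes, 8 were higher in BAT and 1 in eWAT adipocytes (41.4% and 41.1% of all genes). The medians were 2.56 (BAT over iWAT adipocytes) and 3.43 (BAT over eWAT adipocytes). Between the white depots, 7 were higher in iWAT and 2 in eWAT adipocytes (34.1% and 34.5% of all genes). The catalytic subunits of the pyruvate dehydrogenase complex moved together. Pdha1, the E1 alpha subunit, ranged from 48.4 to 69.6 RPKM in iWAT adipocytes (median 61.7), from 23.6 to 38.5 in eWAT adipocytes (33.5) and from 311 to 400.4 in BAT (340.1). It was 8.64-fold and 16-fold higher in BAT (adjusted p = 9.5e-12 and 2.3e-12) and 1.88-fold higher in iWAT than in eWAT adipocytes (adjusted p = 5.8e-05). Pdhb (E1 beta), Dlat (E2) and Dld (E3, shared with the 2-oxoglutarate complex) were 5.20-fold to 8.90-fold higher in BAT than in iWAT adipocytes and 7.90-fold to 13.4-fold higher than in eWAT adipocytes. They were 1.54-fold to 1.85-fold higher in iWAT than in eWAT adipocytes.

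The kinases that switch this complex off differed by isoform. Pdk4, which rises with fasting and fatty acid use, is at chr6:5433351-5446309 on the minus strand. It ranged from 23.7 to 41.1 RPKM in iWAT adipocytes (median 34.8), from 12.6 to 26.5 in eWAT adipocytes (18.4) and from 208 to 412 in BAT (326). BAT lay above both depots, by 13.9-fold over iWAT adipocytes (log2 3.80 ± 0.18, adjusted p = 3.7e-11) and by 24.5-fold over eWAT adipocytes (4.62 ± 0.21, adjusted p = 1.6e-11). The white depots overlapped, at 1.79-fold higher in iWAT adipocytes (adjusted p = 0.00131). Pdk4 was the leading kinase transcript in each tissue, at 69.8% ± 4.35, 57.9% ± 6.05 and 85.1% ± 3.06 of the family in iWAT adipocytes, eWAT adipocytes and BAT.

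Pdk2, the broadly expressed kinase, had medians of 9.59 RPKM in iWAT adipocytes (7.26 to 10.6), 5.65 in eWAT adipocytes (4.09 to 7.01) and 46.2 in BAT (36.0 to 48.9). It was 7.13-fold and 12.2-fold higher in BAT (adjusted p = 5.6e-12 and 1.4e-12) and 1.74-fold higher in iWAT than in eWAT adipocytes (adjusted p = 2.6e-04). Pdk1, a target of hypoxia signalling, had medians of 3.19 RPKM in iWAT adipocytes (2.51 to 3.33), 4.41 in eWAT adipocytes (3.88 to 5.29) and 8.56 in BAT (7.08 to 11.3). It was 4.34-fold and 2.94-fold higher in BAT and, unlike Pdk2 and Pdk4, higher in eWAT than in iWAT adipocytes (1.45-fold, adjusted p = 6.3e-05).

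Pdk3 was the kinase of the opposite pattern. It ranged from 1.68 to 2.35 RPKM in iWAT adipocytes (median 1.93), from 3.29 to 4.07 in eWAT adipocytes (3.48) and from 0.188 to 0.339 in BAT (0.274). No tissue overlapped another, with eWAT adipocytes highest and BAT lowest. Pdk3 was 4.80-fold and 8.74-fold higher in iWAT and eWAT adipocytes than in BAT (adjusted p = 3.8e-09 and 1.8e-11) and 1.78-fold higher in eWAT than in iWAT adipocytes (adjusted p = 5.8e-06).

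Pcx, pyruvate carboxylase, which supplies oxaloacetate for citrate export and glyceroneogenesis, was the one member of this group not called between iWAT adipocytes and BAT. It ranged from 81.2 to 129 RPKM in iWAT adipocytes (median 101), from 20.5 to 76.3 in eWAT adipocytes (53.9) and from 49 to 70.1 in BAT (57.5). The iWAT values lay above all others, and the lowest eWAT values, 20.5 and 26.6 RPKM, were those of mice 3 and 1. Pcx was 2.14-fold higher in iWAT than in eWAT adipocytes (log2 1.10 ± 0.29, adjusted p = 0.00431). It was not called between iWAT adipocytes and BAT with TMM (log2 0.26 ± 0.12, adjusted p = 0.0736), but was called higher in iWAT adipocytes without scaling (1.10 ± 0.13, adjusted p = 5.0e-07) and without the iWAT library of mouse 5 (0.34 ± 0.11, adjusted p = 0.0121). Its 1.77-fold call in BAT over eWAT adipocytes (adjusted p = 0.00776) turned without scaling.

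Most genes of the citric acid cycle were higher in BAT than in the white depots. Of 17 genes, 14 were higher in BAT and 1 in iWAT adipocytes (37.2% and 38.1% of all genes). Against eWAT adipocytes, 15 were higher in BAT and 1 in eWAT adipocytes (41.4% and 41.1% of all genes). The medians were 2.86 (BAT over iWAT adipocytes) and 3.27 (BAT over eWAT adipocytes). Between the white depots, 16 were higher in iWAT and 1 in eWAT adipocytes (34.1% and 34.5% of all genes). The median was 0.68 (iWAT over eWAT adipocytes). Summed over the 17 genes, RPKM was 429 to 607 in iWAT adipocytes, 292 to 392 in adipocytes of eWAT and 1581 to 1943 in BAT. The member higher in the white depots than in BAT, and in eWAT than in iWAT adipocytes, was Me2.

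Cs, citrate synthase, which opens the cycle, had 46.6 to 70.8 RPKM in iWAT adipocytes (median 57.3), 25.6 to 41.3 in adipocytes of eWAT (35.2) and 184 to 213 in BAT (206). It was 5.27-fold and 8.91-fold higher in BAT (adjusted p = 9.5e-11 and 4.9e-12) and 1.72-fold higher in iWAT than in eWAT adipocytes (adjusted p = 2.4e-04). Idh3a, the catalytic subunit of the NAD-dependent isocitrate dehydrogenase, had 28.8 to 47.5 RPKM in iWAT adipocytes (median 39.8), 10.8 to 23.6 in adipocytes of eWAT (17.9) and 172 to 209 in BAT (187). It was 7.24-fold and 16-fold higher in BAT (adjusted p = 3.3e-11 and 1.8e-11) and 2.25-fold higher in iWAT than in eWAT adipocytes (log2 1.17 ± 0.19, adjusted p = 1.1e-04), the one gene of the cycle past 2-fold between the white depots. Its partner subunits Idh3b and Idh3g were 9.36-fold and 8.66-fold higher in BAT than in iWAT adipocytes, 12.5-fold and 13.5-fold higher than in eWAT adipocytes, and 1.36-fold and 1.58-fold higher in iWAT than in eWAT adipocytes.

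The succinyl-CoA synthetase subunits Suclg1 and Sucla2 had the largest folds of the group in favour of BAT after Me3. Suclg1, the alpha subunit shared by both forms of the enzyme, ranged from 11.5 to 16.7 RPKM in iWAT adipocytes (median 15.8), from 7.47 to 11.5 in eWAT adipocytes (9.64) and from 112 to 145 in BAT (123). It was 12.5-fold higher in BAT than in iWAT adipocytes (log2 3.64 ± 0.12, adjusted p = 1.1e-12) and 19.7-fold higher than in eWAT adipocytes (4.30 ± 0.12, adjusted p = 1.4e-13). The beta subunits set whether ADP or GDP is used. Sucla2, the ADP form, ranged from 23.9 to 34.9 RPKM in iWAT adipocytes (median 30.8), from 11.8 to 21.2 in eWAT adipocytes (17.2) and from 169 to 238 in BAT (213). It was 10.5-fold and 18.3-fold higher in BAT (adjusted p = 2.9e-12 and 2.4e-12). Suclg2, the GDP form, ranged from 7.96 to 10.2, from 4.30 to 6.47 and from 19.6 to 24.3 RPKM and was 3.73-fold and 6.31-fold higher in BAT (adjusted p = 1.9e-11 and 2.9e-12). Sucla2 made up 76.9% ± 1.07 of the beta subunit RPKM in iWAT adipocytes, 76.2% ± 1.69 in adipocytes of eWAT and 90.3% ± 0.721 in BAT. The white depots overlapped in this share and BAT stood above them.

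The other steps in the mitochondrial matrix moved the same way. Ogdh and Dlst, the E1 and E2 components of the 2-oxoglutarate dehydrogenase complex, were 8.57-fold and 7.25-fold higher in BAT than in iWAT adipocytes and 11.1-fold and 9.66-fold higher than in eWAT adipocytes, though another symbol overlaps the whole span of Dlst. Fh1, fumarase, was 7.99-fold and 12.7-fold higher in BAT, and Mdh2, the mitochondrial malate dehydrogenase, was 4.90-fold and 7.31-fold higher. All 4 were higher in iWAT than in eWAT adipocytes, by 1.31-fold to 1.61-fold, with adjusted p from 5.0e-05 to 0.00136.

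The cytosolic counterparts differed from these. Mdh1, the cytosolic malate dehydrogenase, had medians of 61.9, 37.8 and 72.7 RPKM in adipocytes of iWAT, in those of eWAT and in BAT. It was 1.79-fold higher in BAT than in iWAT adipocytes (adjusted p = 9.5e-06), a direction that turned without scaling, and 2.92-fold higher than in eWAT adipocytes (adjusted p = 8.7e-09). Aco1, the cytosolic aconitase that doubles as an iron sensor, had medians of 29.4, 20 and 19.8 RPKM. It was higher in iWAT than in eWAT adipocytes (log2 0.58 ± 0.10, adjusted p = 2.3e-04) and not called between iWAT adipocytes and BAT (log2 0.00 ± 0.10, adjusted p = 0.969). Without scaling, Aco1 was called higher in iWAT adipocytes than in BAT (log2 0.86 ± 0.10, adjusted p = 7.4e-07), and its 1.47-fold call in BAT over eWAT adipocytes turned without scaling. Idh1, the cytosolic NADP-dependent isocitrate dehydrogenase, had 71.6 to 101 RPKM in iWAT adipocytes (median 84.5), 68.5 to 81.6 in adipocytes of eWAT (73.8) and 47.7 to 64.7 in BAT (53.7). BAT was thus lowest in RPKM, but with TMM scaling Idh1 was not called against iWAT adipocytes (log2 0.05 ± 0.11, adjusted p = 0.697) or eWAT adipocytes (log2 -0.16 ± 0.09, adjusted p = 0.110). Without scaling, Idh1 was called higher than in BAT in iWAT adipocytes (log2 0.90 ± 0.11, adjusted p = 6.6e-07) and in eWAT adipocytes (log2 0.75 ± 0.11, adjusted p = 3.7e-06). Its 1.18-fold call in iWAT over eWAT adipocytes (adjusted p = 0.0350) did not hold with the mouse number as a block (adjusted p = 0.0711) or without scaling (adjusted p = 0.110). It also did not hold without the eWAT libraries of mice 1 and 3 (adjusted p = 0.121).

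The NADP-dependent isocitrate dehydrogenases exchanged places. Idh2, the mitochondrial form, ranged from 32.0 to 40.2 RPKM in iWAT adipocytes (median 38.5), from 19.3 to 23.9 in eWAT adipocytes (22.3) and from 84.0 to 128 in BAT (108), and was 4.32-fold and 7.26-fold higher in BAT (adjusted p = 2.6e-11 and 4.8e-13). Its share of Idh1 plus Idh2 RPKM was 30.3% ± 1.44 in iWAT adipocytes, 23.0% ± 1.37 in adipocytes of eWAT and 65.9% ± 4.25 in BAT, without overlap. A ratio within one library does not depend on the scaling between libraries.

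The mitochondrial malic enzymes, which turn malate into pyruvate, also exchanged places, at low levels. Me2, the NAD-preferring form, ranged from 1.80 to 2.03 RPKM in iWAT adipocytes (median 1.85), from 2.31 to 2.60 in eWAT adipocytes (2.53) and from 0.473 to 0.749 in BAT (0.623). It was 1.99-fold and 2.68-fold higher in iWAT and eWAT adipocytes than in BAT (adjusted p = 1.1e-08 and 1.4e-10), and other symbols overlap the whole span of its row. Me3, the NADP-dependent form, at chr7:96780902-97002869 on the plus strand, ranged from 0.0219 to 0.0508 RPKM in iWAT adipocytes (median 0.0423), from 0.0133 to 0.0361 in eWAT adipocytes (0.0260) and from 1.26 to 1.85 in BAT (1.57). BAT was far above both depots, by 58.9-fold over iWAT adipocytes (log2 5.88 ± 0.13, adjusted p = 2.2e-14) and by 96.8-fold over eWAT adipocytes (6.60 ± 0.15, adjusted p = 5.6e-14), the largest folds of the 49 genes in favour of BAT. The 1.66-fold difference between the white depots (adjusted p = 0.0234) did not hold with the mouse number as a block (adjusted p = 0.0526). It was also not called without the eWAT libraries of mice 1 and 3 (adjusted p = 0.0861). Me3 made up 2.12% ± 0.534 of the Me2 plus Me3 RPKM in iWAT adipocytes, 0.990% ± 0.375 in adipocytes of eWAT and 71.8% ± 1.51 in BAT.

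As a level cutoff, a mean of 1 RPKM was reached by 44 of the 49 genes in iWAT adipocytes and by 43 in eWAT adipocytes and in BAT. In the white depots the genes below it were Aldoc, Gapdh, Pgam2 and Me3, with Eno2 in iWAT adipocytes and Pfkfb1 and Eno3 in eWAT adipocytes. In BAT they were Hk3, Pfkfb4, Aldoc, Eno2, Pdk3 and Me2. All 49 genes had more than 3 reads in every white library, and 48 in every BAT library, with Aldoc as the exception.

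A list of 32 other genes of these pathways was read beside the 49. Of 25 tested between the white depots, 18 were higher in iWAT and 5 in eWAT adipocytes (34.1% and 34.5% of all genes). Of 26 tested against BAT, 20 were higher in BAT and 5 in iWAT adipocytes (37.2% and 38.1% of all genes). Against eWAT adipocytes, 20 were higher in BAT and 6 in eWAT adipocytes (41.4% and 41.1% of all genes). The medians were 2.16 (BAT over iWAT adipocytes) and 2.42 (BAT over eWAT adipocytes). The succinate dehydrogenase subunits Sdha, Sdhb, Sdhc and Sdhd, which link the cycle to the respiratory chain, were 4.36-fold to 9.42-fold higher in BAT than in iWAT adipocytes. Pkm2, the pyruvate kinase row, had means of 36.7, 80.5 and 136 RPKM and was 2.18-fold higher in eWAT than in iWAT adipocytes (adjusted p = 2.9e-06), the same order as Pgam1.

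Glucose transporters, like hexokinases, differed in isoform between the tissues. Slc2a4, the insulin-responsive transporter GLUT4, had means of 18.1, 4.81 and 54.1 RPKM in adipocytes of iWAT, in those of eWAT and in BAT, and was 4.57-fold and 17.1-fold higher in BAT (adjusted p = 1.1e-08 for both) and 3.79-fold higher in iWAT than in eWAT adipocytes (adjusted p = 1.3e-04). Slc2a1, the general transporter GLUT1, had means of 7.23, 19.1 and 1.51 RPKM and was 2.62-fold higher in eWAT than in iWAT adipocytes (adjusted p = 1.5e-06) and 8.38-fold higher in eWAT adipocytes than in BAT (adjusted p = 6.7e-11). Slc16a3, the lactate exporter MCT4, had means of 0.612, 2.39 and 0.181 RPKM and was 3.88-fold higher in eWAT than in iWAT adipocytes (adjusted p = 1.1e-06). Slc2a1 and Slc16a3 thus had the order of tissues of the macrophage markers. In the macrophage-rich eWAT libraries of mice 3 and 1, Slc2a1 was at 22.5 and 21.2 RPKM, against 13.7 to 19.8 in the other eWAT libraries. Slc16a3 was at 2.99 and 2.51 RPKM, against 2.03 to 2.42. The part of macrophage RNA in the values of both genes was not tested. Pck1, the cytosolic PEP carboxykinase of glyceroneogenesis, had means of 132, 28.7 and 440.3 RPKM and was 4.62-fold higher in iWAT than in eWAT adipocytes (adjusted p = 1.4e-05). Genes not tested in any comparison, at under 10 reads on average, included Pklr, Pgk2, Ldhc and Fbp1.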

How the data were processed

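RNA was measured by RNA-seq in 18 libraries, grouped by tissue from their labels. Per the labels, RNA was prepared with a NEBNext Ultra kit, and the submitters' processing notes name cutadapt 1.16, HISAT2 2.1.0 and mm9. The authors deposited read counts per transcript row and the RPKM computed from them with 1 total per library. The counting program and the rule for multi-mapped reads are not given in the sources used here. In BAT, reads on rows exceed that total, so some reads were counted more than once.

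Counts were tested pair by pair on the 12 libraries compared with edgeR 4.0.16 in R 4.3.3 (TMM, glmQLFTest, two-sided). A gene needed a mean of 10 reads to be tested. The Benjamini-Hochberg adjustment ran over all genes tested, with a threshold of 0.05. The SE was derived from the F statistic. The test was tested on simulated data. There both tissues had the same mean profile apart from a small set of changed genes, so scaling between BAT and white depots was not examined. Labels give separate mouse numbers, so p-values measure the spread between these samples. Every pair of libraries of a tissue differed beyond sampling noise. A floor of 3 reads covers counting error only. Isoform shares are of summed RPKM, with no test.

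The 49 members and all lists were chosen with earlier results of these data known. All 49 members are accounted for. Lowest, median and highest RPKM are given for isoform families and for the 5 largest changes per direction of each comparison, and other values by fold change. Copies were searched with BLAST 2.17.0+ (at least 300 bases and 95% identity) using the GENCODE vM1 transcripts and the NCBIM37 genome, and sequences were read from that genome. Of the 32 other pathway genes, those described singly were picked after their values were seen. Some genes of that list are not reported here.

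Numbers in the sample titles were taken as mouse numbers. Deviations of same-numbered libraries from their group means correlated at a mean r of 0.00334 over 6 pairs (white depots), -0.0150 over 4 pairs (iWAT and BAT) and 0.0149 over 4 pairs (eWAT and BAT). The number was used as a block in an alternative fit. Other alternatives were DESeq2 1.42.0, limma 3.58.1 on log2(RPKM + 0.1) or log2(RPKM + 1), no scaling, no filter, mitochondrial rows left out, summed rows, all 18 libraries in one fit and lane. A further one left out mitochondrial rows and their nuclear copies, without scaling. Alternatives chosen after seeing the data added reads of copies or left out libraries. Python 3.11.15, numpy 2.4.6, pandas 2.3.3 and matplotlib 3.10.9 were also used.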

Additional observations from a re-analysis of the deposited data

Results flagged for a closer look

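Dixon's criterion for a single library far from the rest was met by 2 of 147 sets of 6 libraries (49 genes in 3 tissues), where chance flags about 1 in 20. Dlst in BAT was at 72.8 RPKM in mouse 16 and at 87.6 to 93.5 RPKM in the other 5 mice. Suclg1 in iWAT adipocytes was at 11.5 RPKM in mouse 5 and at 15.4 to 16.7 RPKM in the other 5 mice. These are the libraries that held the lowest RPKM, without TMM scaling, of 26 of 49 genes in BAT and of 32 of 49 genes in iWAT adipocytes. The TMM factor of the BAT library of mouse 16 was 0.536, against 0.629 to 0.725 in the other BAT libraries. Scaled values were not tested for outliers. Divided by these factors, the Dlst value of mouse 16 was no longer the lowest in BAT. The Suclg1 value of mouse 5 stayed the lowest in iWAT adipocytes when divided by the TMM factors of those libraries. Without the iWAT library of mouse 5, 33 members were called higher in iWAT and 12 in eWAT adipocytes, beside 6726 and 6836 of 19539 genes tested. Against BAT, 8 members were called higher in iWAT adipocytes and 38 in BAT, beside 7326 and 7361 of 19662 genes tested.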

How the results depend on the processing

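With a 2-fold threshold added, 5 and 3 members were called higher in iWAT and in eWAT adipocytes (13.0% and 11.9% of all genes). Members called higher in iWAT adipocytes than in BAT numbered 12 without scaling and 12 with limma at either pseudocount (0.1 or 1). With limma, 12752 and 12743 of 21613 genes tested were, and without scaling 13703 of 19745. Members higher in eWAT adipocytes than in BAT numbered 12 without scaling, beside 12965 of 20076 genes tested. Without scaling, log2 fold changes of iWAT over eWAT adipocytes turned for Pfkfb2 (-0.05). Those of iWAT adipocytes over BAT turned for Pfkp (0.04), Pfkfb1 (0.21), Pfkfb2 (0.51), Tpi1 (0.61) and Mdh1 (0.02), and those of eWAT adipocytes over BAT for Hk1 (0.47), Pfkp (0.38), Pfkfb2 (0.56), Pfkfb3 (0.32), Tpi1 (0.42), Pcx (0.08), Aco1 (0.36) and Idh1 (0.75). With limma at pseudocounts of 0.1 and 1, those of iWAT adipocytes over BAT turned for Pfkfb2 (0.26 and 0.17) and Tpi1 (0.37 and 0.36). Those of eWAT adipocytes over BAT turned for Hk1 (0.14 and 0.12), Pfkp (0.07 and 0.06), Pfkfb2 (0.23 and 0.15), Tpi1 (0.10 and 0.10), Aco1 (0.04 and 0.04) and Idh1 (0.44 and 0.43). Values near 0 also turned. Eno1 (iWAT over eWAT adipocytes) was at 0.01 with DESeq2, 0.02 without the filter, 0.01 with mitochondrial rows and their nuclear copies left out and no scaling, and 0.05 without the iWAT library of mouse 5. Gapdh (iWAT over eWAT adipocytes) was at 0.11 without the eWAT libraries of mice 1 and 3, and Aco1 (iWAT adipocytes over BAT) at -0.05 with only the BAT libraries of mice 2 and 17. The cause was not tested. Leaving out only mitochondrial rows or summing the rows of a symbol changed none of the 147 directions and calls of members. Lane as a covariate changed none of the 49 between the white depots. With mitochondrial rows and their nuclear copies left out and no scaling, 139 of the 147 stayed the same. Pcx (0.46), Aco1 (0.21) and Idh1 (0.25) were then called higher in iWAT adipocytes than in BAT. Pfkfb2 lost its calls in BAT over both white depots, and Pfkfb3 that in BAT over eWAT adipocytes. Depth limits Aldoc and Me3 most, and for the 7 genes with copies the own rows hold only part of the reads.

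With a replicate block for the mouse number, 28 members were called higher in iWAT and 12 in eWAT adipocytes, beside 6332 and 6504 of 19623 genes tested. Of the 147 calls of members, the block changed those of Eno3, Idh1 and Me3 between the white depots, and Aco1 (iWAT adipocytes over BAT) moved to -0.03. Sharing of a title number gave a correlation over 0.1 in 1 of 6, 1 of 4 and 0 of 4 pairs.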
